A study of Mus musculus with 10 samples.

Results

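LECs that had lost both Tie receptors were compared with LECs of control mice in 4 of the 10 samples of the series, each of them a plate of single LECs with libraries made by Smart-seq, a full-length transcript method. The plates were chosen by strain, with both receptor genes floxed: 2 plates came from Prox1CreERT2;Tie1fl/fl,Tie2fl/fl mice (hereafter Tie1/-2-deleted) and 2 from Tie1fl/fl,Tie2fl/fl mice without Cre (controls). All 4 plates carry the label male, and mice of both groups, controls included, received 4-hydroxytamoxifen (4-OHT), the agent that activates CreERT2, from P1 to P5. The dose was 62.5 µg in both groups. The age at which the LECs were taken is not given here. The LECs were sorted from ear skin as live cells positive for CD31 and PDPN and negative for CD45, CD11b, and Ter119. Of 1524 wells, 1386 held at least 50000 gene counts and 1000 detected genes and were kept. These were 352 and 333 control wells and 348 and 353 deleted wells. How many mice gave cells to a plate is not given in the sources used here, so each plate was 1 sample, n was 2 per group, and a p-value measures only the spread between plates. In each group, plate 1 has a table with genes named by Ensembl identifier and plate 2 a table with genes named by symbol. Differences per plate pair set plates of the same layout against each other. The fit behind the p-values did not pair these plates. Its layout term was shared with the Tie1fl/fl plates of the series.

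Tie2, encoded by Tek, is the receptor of the angiopoietins, and Tie1 is a related receptor that has no well established ligand of its own and modulates Tie2 signaling. Ang2, encoded by Angpt2, activates Tie2 in LECs, where the receptors signal through PI3K and Akt, which keep the transcription factor FoxO1 out of the nucleus. Prox1CreERT2 is active in cells that express the lymphatic transcription factor Prox1, so deletion with it is aimed at LECs and can miss cells in which recombination did not take place.

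The sums per plate held 70695267 to 110268819 gene counts, with medians of 191884 to 287294 counts and 3763.5 to 6548 detected genes per kept well, and no 2 wells held identical counts. Deleted plates 1 and 2 had medians of 3763.5 and 6064 detected genes, below the 5148 and 6548 of control plates 1 and 2. All 9 markers of lymphatic endothelium were detected in every plate, with summed levels of 11284 and 11342 CPM (gene counts scaled to a common library size) in the control and 14389 and 12172 CPM in the deleted plates, and Prox1 was at 825 to 959 CPM. Markers of other skin cells moved with plate or group. The 10 keratinocyte markers summed to 251 and 248 CPM in the control but 25.3 and 43.6 CPM in the deleted plates, and the 10 fibroblast markers to 882 CPM in control plate 1 and 373 to 460 CPM in the other 3 plates. Reads of Dcn, a fibroblast proteoglycan, were at 198 CPM in control plate 1 and 11.2 to 37.4 CPM elsewhere. The 12 leukocyte markers summed to 15.6 to 35.9 CPM, the 8 Schwann cell markers to 8.67 to 16.8 CPM, and the 6 erythroid markers to 3.0 to 141 CPM. The 10 mural cell markers summed to 86.8 and 29.2 CPM in the control and 252 and 148 CPM in the deleted plates, and the 15 blood endothelial markers to 1088 and 1232 against 2033 and 1383 CPM, so both sums were higher in both deleted plates. Kcnj8 gave most of the mural sum in the deleted plates, at 159 and 126 CPM against 8.72 and 16.8 CPM in the control. Plvap, which LECs also express, gave most of the blood endothelial sum, and Cd34, Esm1, and Sox17 of that list were higher in both deleted plates, Sox17 at 0.438 and 5.65 against 90.5 and 37.7 CPM (adjusted p = 0.204). Emcn of the same list was lower in both, at 229 and 271 against 72.3 and 124 CPM. Of the 13 tested genes of that list, 5 had a positive and 8 a negative log2 fold change, with a median of -0.03. Mitochondrial transcripts summed to 8409 and 8292 CPM in the control and 10976 and 12421 CPM in the deleted plates. The part of these cells in the results was not tested, but each count below was also computed without wells over 100 CPM of fibroblast or keratin markers. In sums of this kind, fewer cells that express a gene and less RNA per cell cannot be told apart, and the share of wells with a read is therefore given as well. Since fewer genes were detected per deleted well, these shares can lean toward a fall in the deleted plates, which was not tested.

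Both targeted genes were lower in the Tie1/-2-deleted plates. Tie1 (ENSMUSG00000033191, GRCm38 chromosome 4, 118471191 to 118490061, minus strand) was at 2674 and 2509 CPM in the control plates and at 760 and 448 CPM in the deleted plates. Tek (ENSMUSG00000006386, chromosome 4, 94739289 to 94874976, plus strand) was at 298 and 285 CPM in the control plates and at 34.6 and 50.9 CPM in the deleted plates. For neither receptor did the groups overlap. The log2 fold change was -2.14 ± 0.21 (SE) for Tie1 (adjusted p = 0.0169) and -2.76 ± 0.31 for Tek (adjusted p = 0.0205, by the quasi-likelihood test of edgeR, adjusted after Benjamini and Hochberg over 20237 genes). Genes with an adjusted p under 0.05 are referred to as called, and the verbs rose and fell are kept for them. In the exact permutation test of 2 plates against 2, no two-sided p can be under 0.33.

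With each well thinned to 50000 gene counts, which equals total counts but not the number of genes detected, a Tie1 read was found in all 352 and all 333 control wells, but in 216 of 348 (62.1%, 95% Clopper-Pearson interval 56.7 to 67.2%) and 247 of 353 (70.0%, 64.9 to 74.7%) deleted wells. Deleted wells that still had a Tie1 read held a mean of 54.9 and 33.6 of them, against 133 and 132 in the control wells. A Tek read was found in 56.2% and 73.0% of the control wells and in 11.2% (8.09 to 15.0%) and 18.7% (14.8 to 23.2%) of the deleted wells. Neither receptor had a read in 35.9% and 26.9% of the deleted wells and in 0 of the control wells. The counts cover every exon of a gene, so reads from exons that Cre leaves in place count as reads of the receptor. Intervals cover counting error only. Unless given as before thinning, the shares of wells with a read in the Results below are of thinned wells.

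Deleted wells with and without a Tie1 read held much the same numbers of Angpt2 reads. The means were 140 reads with and 171 without in deleted plate 1, and 146 with and 139 without in deleted plate 2, while control wells held 12.9 and 24.1. Eln, which encodes elastin, had a read in 27.3% of the wells with and 11.4% of those without a Tie1 read in deleted plate 1, and in 37.2% and 24.5% in deleted plate 2, against 88.9% and 96.1% of all control wells. Wells of a plate are not replicates, so these values are a description.

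**Figure D1:**
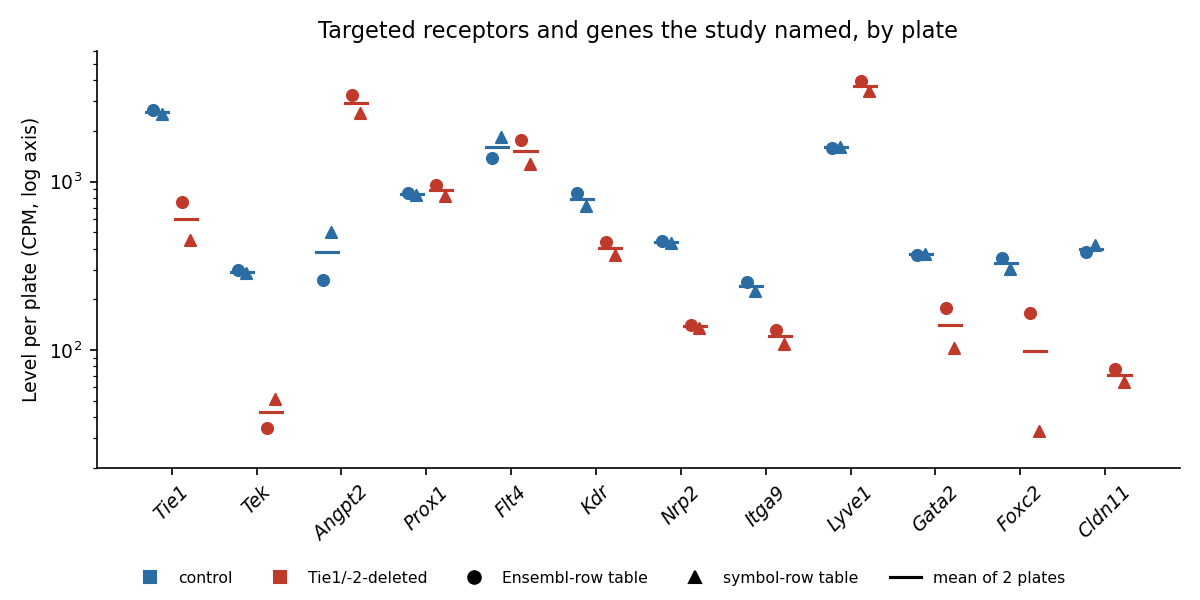
Levels in CPM (log axis) of the targeted receptors and 10 other genes the study names, with 1 point per plate: control in blue, Tie1/-2-deleted in red, circles for plates with Ensembl rows, triangles for plates with symbol rows, and a bar for the mean of 2 plates. Tie1, Tek, Kdr, Nrp2, Itga9, Gata2, Foxc2, and Cldn11 lay lower and Angpt2 and Lyve1 higher in both deleted plates, while the groups overlapped for Prox1 and Flt4.

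Across all genes, 197 of 20237 were called (0.973%), of which 46 rose (0.227%) and 151 fell (0.746%). At an unadjusted p under 0.05 there were 2399 genes. The called rises had a median log2 fold change of 2.40 and the called falls of -2.93, while the median over all genes tested was -0.017. The plates of both groups did not overlap for any of the 197 genes, which the test favors with 2 plates a group. The share of all genes tested without overlap is not given here. This count and the other remarks on overlap are therefore descriptions only. Over the 10178 genes of at least 10 CPM in the higher group, the differences of both plate pairs had the same sign in 58.4%, with r = 0.57 across genes, which are not independent replicates. Without the wells over 100 CPM of fibroblast or keratin markers, 217 genes were called, among them 175 of the 197. This left 164 of 352 and 254 of 333 control wells but 329 of 348 and 316 of 353 deleted wells, so it removed most from control plate 1. With 1 of the 4 plates left out, only 16 to 32 genes were called.

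**Figure D2:**
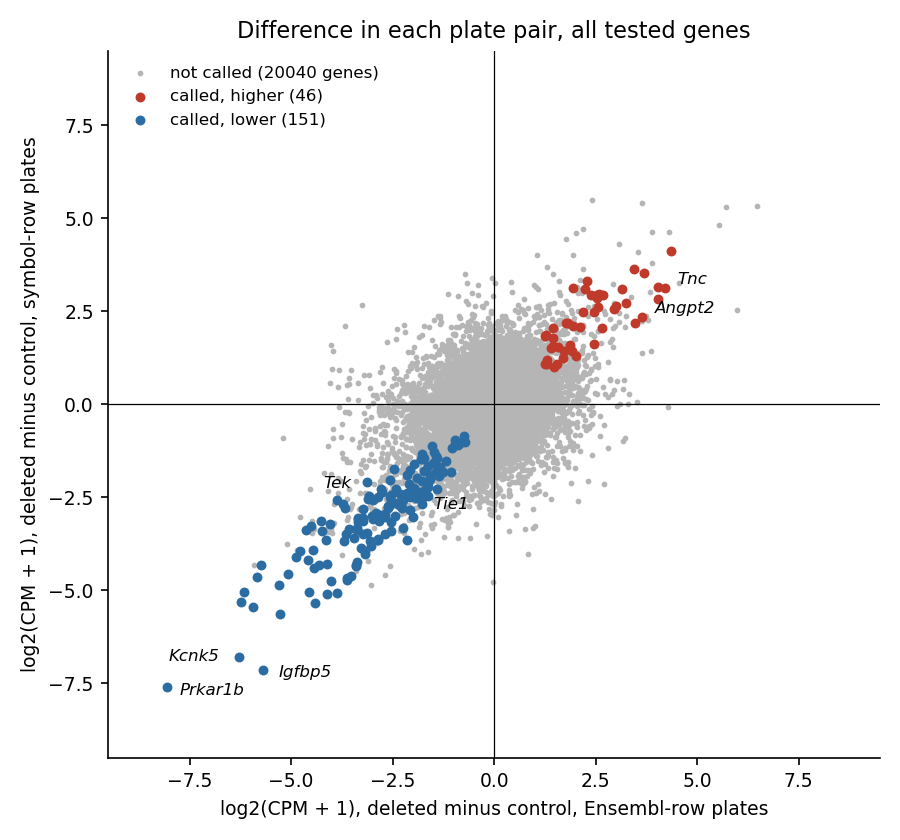
Difference in log2(CPM + 1), deleted minus control, of every tested gene in the plates with Ensembl rows (horizontal) and in those with symbol rows (vertical). The 46 genes that rose (red) and the 151 that fell (blue) lie along the diagonal, while genes that were not called (gray) lie mostly near the origin.

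The counts by function below use lists chosen with earlier results of these data known, so a list's count and median carry no test of the list. Each is to be read beside all genes tested. Of these, 0.973% were called, 0.227% higher and 0.746% lower, and the median log2 fold change was -0.017.

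Among 9 tested genes of the angiopoietin pathway, Angpt2 rose and both receptors fell, with a list median of -2.14. Both receptors are targeted, so their fall is set by the design, and this median equals the value of Tie1. Angpt2 (chromosome 8, 18690263 to 18741562), the ligand Ang2, was at 261 and 501 CPM in the control plates and at 3282 and 2555 CPM in the deleted plates. Both deleted plates lay far above both control plates, and the log2 fold change was 2.95 ± 0.34 (adjusted p = 0.0234). An Angpt2 read was found in 51.1% and 88.6% of the thinned control wells and in 99.7% and 100% of the deleted wells, so nearly every deleted well held Angpt2 reads. Angpt1, the other main ligand, was at 0.242 CPM or less in the 4 plates. Ptprb, the phosphatase VE-PTP that acts on Tie2, was at 217 and 187 CPM in the control and 229 and 225 CPM in the deleted plates (adjusted p = 0.838).

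None of 24 genes of PI3K, Akt, and FoxO signaling was called, where 0.973% of all genes tested were. The median log2 fold change of the 24 was -0.04. Tsc2, an inhibitor of mTOR that Akt acts on, was at 206 and 190 CPM in the control and 201 and 135 CPM in the deleted plates. Of 25 genes known as FoxO targets, Angpt2 rose and Txnip and Nos3 fell, with a list median of -0.18. The list does not part genes that FoxO factors raise from genes they lower. Opposite signs and the median therefore say nothing on FoxO activity. Txnip, which binds thioredoxin, fell from 2665 and 2353 to 1482 and 1143 CPM, a log2 fold change of -0.94 ± 0.11. Nos3, the endothelial nitric oxide synthase, fell from 200 and 269 to 18.1 and 12.5 CPM, and its share of wells with a read was 42.6% and 70.6% in the control and 8.05% and 7.65% in the deleted plates. Esm1, an endothelial proteoglycan on this list and on that of blood endothelial markers, was at 0.023 and 0.371 CPM in the control and at 90.6 and 54.1 CPM in the deleted plates, with an adjusted p of 0.0524, just outside the threshold. Without wells of high fibroblast or keratin markers, 2 genes of the FoxO target list rose and 2 fell.

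Of 18 genes for VEGF receptors, their ligands, and their partners, 4 fell and none rose, with a median log2 fold change of -0.35. This is 22.2% called, beside 0.973% of all genes tested. Kdr, which encodes VEGFR2, was at 858 and 714 CPM in the control and at 439 and 369 CPM in the deleted plates (log2 fold change -0.96 ± 0.14). Nrp2, a coreceptor of VEGFR3, was at 442 and 430 against 141 and 136 CPM (-1.66 ± 0.22, adjusted p = 0.0341). The fall of Nrp2 was visible in single cells, with a read in 74.7% and 84.7% of the control and 35.6% and 47.3% of the deleted wells. Dab2, an endocytic adaptor that takes part in VEGF receptor uptake, fell from 637 and 474 to 131 and 84.0 CPM, and the transmembrane ligand Efnb2 from 67.5 and 63.9 to 16.4 and 11.7 CPM. Flt4, which encodes VEGFR3, was at 1381 and 1837 CPM in the control and at 1759 and 1278 CPM in the deleted plates, so the groups overlapped (log2 fold change -0.07 ± 0.22, adjusted p = 0.945). Itga9, an integrin subunit of lymphatic valves, was at 254 and 224 CPM in the control and 132 and 109 CPM in the deleted plates, with no overlap, but was not called (adjusted p = 0.185).

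Genes that mark collecting vessels, the contractile vessels downstream of lymphatic capillaries, had the highest share of called genes among the 29 function lists, although with 1 plate left out 0 to 4 of them were called. Of 7 tested, 5 fell and none rose (71.4% called, beside 0.973% of all genes tested), and the median log2 fold change was -1.82. The paper names these 7 genes for the collecting vessel cluster of its single LECs from this series. It reports that cluster as underrepresented among the Tie1/-2-deleted LECs, so the rank of this list is not independent of these data. Tgm2, a transglutaminase, was at 1715 and 1825 CPM in the control and 646 and 374 CPM in the deleted plates. Mmrn2, a matrix protein of endothelium, fell from 370 and 323 to 34.9 and 16.3 CPM, and the secreted protein Ccdc3 from 314 and 271 to 24.6 and 9.30 CPM. Ccdc3 had a read in 60.8% and 60.7% of the control wells and in 4.60% and 5.38% of the deleted wells. Procr, the protein C receptor, and the transcriptional regulator Tsc22d1 were the other 2 that fell, to 55.6 and 33.1 CPM from 182 and 166 CPM and to 359 and 255 CPM from 735 and 576 CPM. Plvap, a diaphragm protein, had the opposite sign at 806 and 894 against 1642 and 1065 CPM and was not called.

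Of 9 capillary markers, 1 rose and 1 fell, and the list median was -0.07. Lyve1, the hyaluronan receptor of capillary LECs, rose from 1594 and 1616 to 3962 and 3446 CPM (log2 fold change 1.20 ± 0.16, adjusted p = 0.0309). It had a read in 97.4% to 100% of the wells of all 4 plates, so this share could hardly rise. At least 5 reads were found in 68.8% and 89.2% of the control and 96.8% and 100% of the deleted wells. Tppp3, a tubulin-binding protein on the same list, fell from 426 and 460 to 101 and 89.5 CPM. Reln, a secreted glycoprotein, was at 944 and 978 against 857 and 610 CPM and was not called. Of 12 pan-lymphatic markers, Thy1, a surface glycoprotein, rose from 109 and 154 to 288 and 437 CPM. Fgl2, Fxyd6, and Nrp2 fell, Fgl2 from 2947 and 2548 to 1038 and 854 CPM, while Mmrn1 stood at 2703 to 2864 CPM in all 4 plates and the list median was -0.01.

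Of 24 genes of lymphatic valves, which keep lymph from flowing back, 1 rose and 3 fell, and the list median was -0.31. This is 16.7% called, beside 0.973% of all genes tested. The one that rose was Fn1, described with the matrix. Cldn11, a tight junction protein of the valve list, was at 380 and 420 CPM in the control and at 77.3 and 64.8 CPM in the deleted plates (log2 fold change -2.50 ± 0.17, adjusted p = 0.00709). Its reads were found in 63.4% and 80.5% of the control wells but in 10.6% and 20.4% of the deleted wells. Gata2, a transcription factor needed for valve formation, fell from 369 and 370 to 177 and 103 CPM, and Efnb2 fell as given above. Foxc2, another valve transcription factor, was lower in both deleted plates, at 165 and 32.9 CPM against 352 and 304 CPM, but was not called (adjusted p = 0.299). Of 25 lymphatic and endothelial transcription factors, Gata2 and Hey1, a Notch target, were the 2 that fell, and the list median was 0.06. Prox1 stood at 861 and 836 CPM in the control and at 959 and 825 CPM in the deleted plates.

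Genes of the extracellular matrix moved in both directions. Of 40 matrix genes, 4 rose and 3 fell (17.5% called, beside 0.973% of all genes tested), and the list median was -1.30. Fibroblasts also express many of these genes, and the fibroblast markers given above were highest in control plate 1. Fn1, fibronectin, rose from 1024 and 1046 to 3725 and 3171 CPM, with a log2 fold change of 1.73 ± 0.12 (adjusted p = 0.00826). Thbs1, thrombospondin 1, rose from 129 and 144 to 1229 and 961 CPM, and Tnc, tenascin C, from 14.9 and 29.8 to 294 and 267 CPM. Tnc reads were found in 6.82% and 17.1% of the control and 46.6% and 72.2% of the deleted wells. Eln, elastin, fell from 639 and 709 to 71.8 and 63.4 CPM, with a log2 fold change of -3.32 ± 0.18. Col5a2, a fibrillar collagen chain, fell from 152 and 70.2 to 52.0 and 31.6 CPM. Of the 20 basement membrane genes, Agrn, which encodes agrin, fell from 438 and 373 to 193 and 128 CPM, and the other 19 were not called, Col18a1 among them at 1942 and 1629 against 2148 and 1306 CPM, with a list median of -0.22. Of 27 matrix proteases and their inhibitors, Adamts1 fell from 86.9 and 70.5 to 7.38 and 2.55 CPM and Timp4 from 18.8 and 25.7 to 1.75 and 3.74 CPM, and the list median was -0.38. Timp4 was no longer called without wells of high fibroblast or keratin markers (log2 fold change -3.35, adjusted p = 0.163).

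Thbs1 and Ccn2 were also the only called genes among 20 targets of YAP and TAZ, the transcriptional coactivators that respond to cell shape and matrix. Ccn2, connective tissue growth factor, rose from 86.2 and 63.0 to 509 and 392 CPM (log2 fold change 2.60 ± 0.26, adjusted p = 0.0167). Ccn1, its relative, was at 401 and 177 against 670 and 462 CPM and was not called, and the list median was -0.06. Ankrd1 and Esm1 are given after their values were seen. Ankrd1 was at 0.035 and 0.070 CPM in the control and at 19.5 and 25.7 CPM in the deleted plates, with an adjusted p of 0.257.

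Of the IGF axis, 3 genes fell, Igfbp5 among the largest falls, and 1 rose. Igfbp5, a secreted IGF binding protein (chromosome 1, 72857932 to 72874884, minus strand), was at 472 and 502 CPM in the control and at 8.23 and 2.54 CPM in the deleted plates, 90.5-fold lower on average (log2 fold change -6.77 ± 0.54, adjusted p = 0.00868). In thinned wells an Igfbp5 read was found in 250 of 352 and 264 of 333 control wells, but in 4 of 348 and 9 of 353 deleted wells. Igfbp3, another binding protein, fell from 387 and 209 to 13.1 and 12.7 CPM, and the growth factor Igf1 from 42.2 and 24.1 to 0.899 and 1.59 CPM. Igf1 lost its call without the wells of high fibroblast or keratin markers (adjusted p = 0.081), while its log2 fold change went from -4.83 to -5.86. Igfbp7, which is also a vascular matrix protein, rose from 111 and 150 to 399 and 686 CPM, and Igfbp4 was at 1226 and 791 against 1161 and 878 CPM. In all, 1 of the 16 tested genes of this list rose and 3 fell (25.0% called, beside 0.973% of all genes tested), and the list median was -1.74.

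Genes of Notch and BMP signaling changed in part. Of 18 Notch pathway genes, the ligand Dll1 fell from 154 and 90.9 to 15.7 and 10.0 CPM and the target Hey1 from 99.5 and 89.5 to 10.6 and 14.5 CPM, and the list median was 0.04. Notch1, the receptor, was at 549 and 625 against 519 and 253 CPM. Of 37 genes of BMP and TGF-β signaling, the signal transducer Smad1 rose from 344 and 309 to 819 and 653 CPM and Id2, a target of BMP signaling, from 68.1 and 68.5 to 167 and 252 CPM. The ligand Bmp4 fell from 54.3 and 38.3 to 5.36 and 8.30 CPM and Bambi, a decoy receptor, from 110 and 88.2 to 27.0 and 9.97 CPM. Eng, the coreceptor endoglin, was higher in both deleted plates, at 3460 and 2327 against 1546 and 1444 CPM, with an adjusted p of 0.0594. Without wells of high fibroblast or keratin markers Eng was called (log2 fold change 0.96, adjusted p = 0.0342). Id2, Bmp4, and Hey1 were then no longer called (adjusted p = 0.0584, 0.071, and 0.0701), at log2 fold changes of 1.48, -2.51, and -2.99 against 1.59, -2.83, and -2.87 with all wells. Of 38 axon guidance genes, Ntn1, which encodes netrin 1, fell from 544 and 552 to 212 and 145 CPM, beside Nrp2 and Efnb2, none rose, and the list median was -0.54. The median of the BMP and TGF-β list was -0.06.

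Genes of lipid handling moved in both directions, and the called genes of flow response and hemostasis all fell. Of 32 lipid genes, 2 rose and 3 fell, and the list median was -0.21. Cd36, a fatty acid transporter, rose from 9.52 and 15.9 to 134 and 195 CPM and Mgll, monoglyceride lipase, from 51.8 and 60.7 to 203 and 262 CPM. Pparg, a transcription factor of lipid metabolism, fell from 68.8 and 55.7 to 7.87 and 8.57 CPM, Apoe from 140 and 128 to 10.0 and 17.7 CPM, and the fatty acid transport protein Slc27a3 from 50.4 and 30.3 to 7.74 and 6.67 CPM. Of 18 flow-response genes, Tek, Thbd, and Nos3 fell. Tek is a targeted gene, so its fall is set by the design, and Thbd is also on the hemostasis list. Thbd, thrombomodulin, which turns thrombin toward anticoagulation, fell from 205 and 235 to 65.1 and 53.0 CPM. Cav1, the main protein of caveolae, was at 2032 and 1636 against 2531 and 1964 CPM and was not called, and the list median was -0.43. Of 19 hemostasis genes, Thbd, Procr, and Ptgs1, cyclooxygenase 1, fell, and the list median was -0.35. Ptgs1 had 1715 reads in both control plates together and 3 in both deleted plates, a ratio of 544 (95% counting interval 186 to 2639). Before thinning, these reads lay in 5.11% and 15.9% of the control and 0.287% and 0.567% of the deleted wells. Reads of the same well are not independent, so the interval is too narrow. Without wells of high fibroblast or keratin markers Slc27a3 and Ptgs1 were no longer called (log2 fold change -2.29 and -9.16, adjusted p = 0.101 and 0.0944), which left 2 falls in each of the lipid and hemostasis lists.

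**Figure D3:**
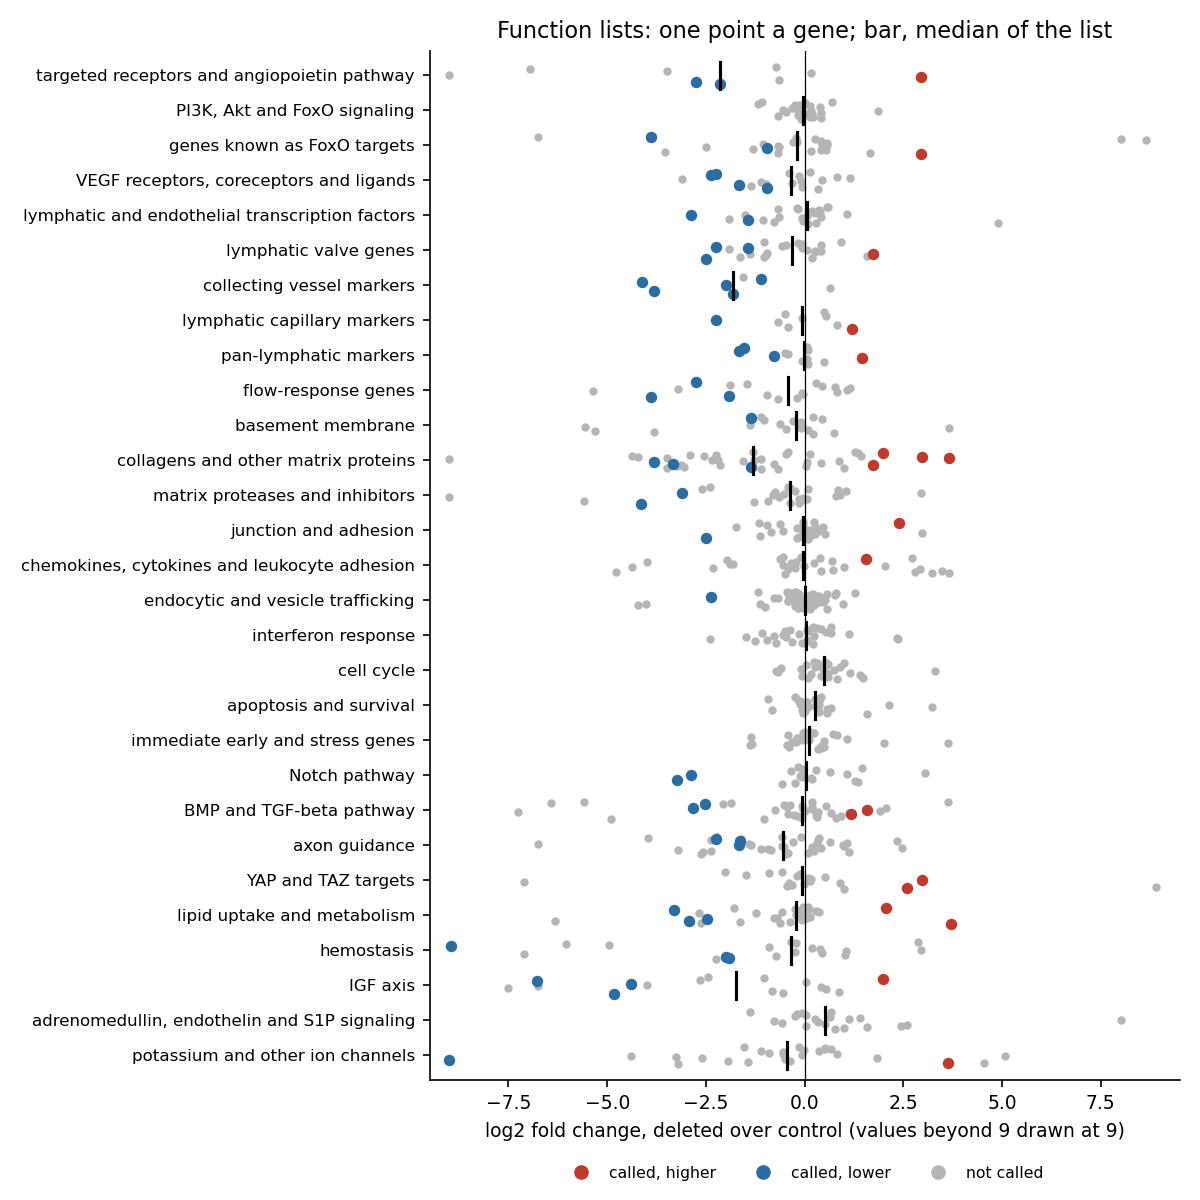
Fitted log2 fold change of each tested member of 29 function lists, with genes that rose in red, genes that fell in blue, genes that were not called in gray, and a bar for the median of the list. The collecting vessel and IGF lists have medians of -1.82 and -1.74, while the lists of PI3K signaling, interferon response, cell cycle, apoptosis, and immediate early genes hold no called gene. Over all genes tested 0.973% were called.

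Several programs held few or no called genes. Over all genes tested 0.973% were called, a share at which lists of this size would hold few or none. None was called among 30 genes of the interferon response, 28 of the cell cycle, 25 of apoptosis and survival, 29 immediate early and stress genes, and 21 of adrenomedullin, endothelin, and S1P signaling. The medians of these lists were 0.04, 0.49, 0.27, 0.10, and 0.52. Without wells of high fibroblast or keratin markers, 1 gene of the apoptosis list, 1 of the immediate early list, and 1 of the adrenomedullin list rose, and 1 more of the last fell. In the cell cycle list 23 of 28 genes had a positive log2 fold change, and Ccnd2, cyclin D2, was at 127 and 155 against 258 and 309 CPM (adjusted p = 0.0869). Of 63 genes of endocytic and vesicle trafficking only Dab2 was called, with a list median of 0.02. Of 28 junction and adhesion genes Cldn11 fell and Cd34 rose, with a list median of -0.03, while Cldn5, the main endothelial claudin, was at 2905 and 2821 against 2823 and 2235 CPM. Cd34, a sialomucin also on the list of blood endothelial markers, was at 26.8 and 10.2 against 125 and 61.3 CPM, but 33.8% of the wells of control plate 1 held a read of it, more than the 21.8% and 26.6% of the deleted plates. Of 32 genes of chemokines, cytokines, and leukocyte adhesion only Cd200, an inhibitory ligand for myeloid cells, was called, and it rose from 139 and 154 to 412 and 447 CPM, while the list median was -0.05. Of 26 ion channel genes Kcnj8 rose and Kcnk5 fell, both described below, and the list median was -0.44.

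In thinned wells, the 14 of the largest falls reported here had a read in a part of the control wells. They had a read in 0% to 9.35% of the wells of a deleted plate, with the highest share for Slco2a1. Before thinning, the shares of control wells with a read were 94.3% and 99.4% for Igfbp5 and 82.1% and 88.0% for Prkar1b. Kcnk5, a potassium channel (chromosome 14, 20140057 to 20181809, minus strand), had 17576 reads in both control plates together (76.6 and 110 CPM) and none in the deleted plates. With a floor of 3 counts over both deleted plates, it was at least 5572-fold lower. A Kcnk5 read was found in 22.2% and 33.6% of the thinned control wells and in 0 of 348 and 0 of 353 deleted wells, which allows shares of up to 0.862% and 0.85%. Prkar1b, a regulatory subunit of protein kinase A, had 43417 reads (273 and 198 CPM) in the control and 6 in the deleted plates, and a read in 49.4% and 54.7% of the control and 0.287% and 0.85% of the deleted wells. B3gnt7, a glycosyltransferase, and Ahsg, fetuin A, also had 0 reads in the deleted plates and were at least 743-fold and 700-fold lower against the same floor. The transcription factor Irx5 had 1942 reads against 1 (ratio 1847, interval 331 to 72986) and Itih2 1996 against 3 (ratio 633, interval 216 to 3071). Both were rare in the controls too, with a read in 3.12% to 7.81% of the wells. Before thinning, Irx5 had a read in 7.1% and 14.7% of the control and 0% and 0.283% of the deleted wells. Itih2 had one in 8.81% and 15.6% of the control and 0% and 0.85% of the deleted wells. These ratios, intervals, and floors count reads, and reads of the same well are not independent, so they overstate the certainty.

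Hbegf, an EGF receptor ligand, Fmo2, a monooxygenase, and Thbs4, thrombospondin 4, fell to 0.369 CPM or less in each deleted plate. In the control plates Hbegf was at 22.5 and 34.2 CPM, Fmo2 at 74.2 and 51.4 CPM, and Thbs4 at 60.5 and 26.5 CPM. Beside these falls stand the lower keratin markers of the deleted plates given above. Without the wells over 100 CPM of keratin or fibroblast markers the log2 fold change of Hbegf was -9.65, against -9.61 with them. A Hbegf read was found before thinning in only 0% and 1.98% of the deleted wells, so both values depend on the prior count. The part of keratinocytes in these falls was not tested. The remaining falls were Tll1, a tolloid protease, at 53.5 and 44.0 against 0.394 and 0.544 CPM, Slco2a1, a prostaglandin transporter, at 98.4 and 64.8 against 0.725 and 1.64 CPM, Parm1 at 36.1 and 44.8 against 0.757 and 0.123 CPM, and Slc10a4 at 28 and 26.5 against 0.205 and 0.518 CPM. Before thinning, Slco2a1 had a read in 53.4% and 61.3% of the control wells and still in 9.77% and 32.9% of the deleted wells. For Tll1 these shares were 38.1% and 53.2% against 5.46% and 10.8%. B3gnt7 was no longer called without the wells over 100 CPM of keratin or fibroblast markers (adjusted p = 0.103). Its fitted log2 fold change, which depends on the prior count, was then -12.98 against -13.09. The median control well held a read of 3 of these 14 genes, and 3.69% and 1.20% of the control wells held none of them. In the deleted plates 92.8% and 85.6% of the wells held none, and no well held more than 3. The 14 were chosen for their fall in these same plates, so the direction of this gap follows from the choice.

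The 15 genes with the largest rises had a read in 19.5% to 100% of the thinned wells of a deleted plate. The lowest share was that of Slc9a9 and the highest that of Angpt2. Beside Angpt2, Thbs1, Tnc, and Cd36 the 15 held Slc9a9, a sodium-proton exchanger, which rose from 1.82 and 3.38 to 56.9 and 74.8 CPM (log2 fold change 4.70 ± 0.43, adjusted p = 0.0137). Rasa4, a Ras GTPase-activating protein, was at 8.4 and 7.61 against 154 and 76.1 CPM, and Uchl1, a ubiquitin hydrolase, at 4.05 and 5.37 against 53.7 and 77.9 CPM. Kcnj8, a potassium channel subunit, was at 8.72 and 16.8 against 159 and 126 CPM. Kcnj8 is also on the list of mural cell markers, and its read was found in 24.7% and 35.7% of the deleted wells, against 3.98% and 8.41% of the control wells. Of the 10 genes of that list, 7 had a positive log2 fold change and only Kcnj8 was called. In deleted plates 1 and 2 Acta2 was at 29.5 and 10.0, Myh11 at 19.4 and 0.772, and Tagln at 13 and 4.11 CPM. Des was at 11.4 and 3.30 and Pdgfrb at 3.71 and 0.886 CPM. In control plates 1 and 2 Myh11 was at 4.67 and 0.371, Tagln at 10.6 and 1.98, and Des at 2.75 and 0.462 CPM. Acta2 was higher in control plate 1 than in deleted plate 1, but at 3.59 CPM in control plate 2. Pdgfrb was lower in each deleted plate than in the control plate of the same layout (log2 fold change -2.14). Cnn1 and Cspg4 also had negative log2 fold changes. Acta2, Myh11, Tagln, Des, and Pdgfrb were higher in plate 1 than in plate 2 of either group. The part of mural cells in the rise of Kcnj8 was not tested. Srpx2, Prom1, Lpar6, Cpne7, Spry1, Hlx, and Mfap3l made up the rest, at 7.23 to 55.2 CPM in the control and 65.1 to 337 CPM in the deleted plates. Among them Spry1, a feedback inhibitor of receptor tyrosine kinases, was at 13.6 and 9.39 against 87.1 and 79.8 CPM, and Lpar6, a lysophosphatidic acid receptor, at 23.5 and 12.9 against 119 and 138 CPM. Deleted wells held a median of 6 and 8 of these 15 genes and control wells 2 and 3, and every deleted well held at least 1. The 15 were chosen for their rise in these same plates, so the direction of this gap follows from the choice. Angpt2, 1 of the 15, alone had a read in 99.7% and 100% of the deleted wells. Slc9a9, Kcnj8, and Mfap3l were no longer called without the wells of high fibroblast or keratin markers, at log2 fold changes of 5.89, 3.96, and 2.44.

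**Figure D4:**
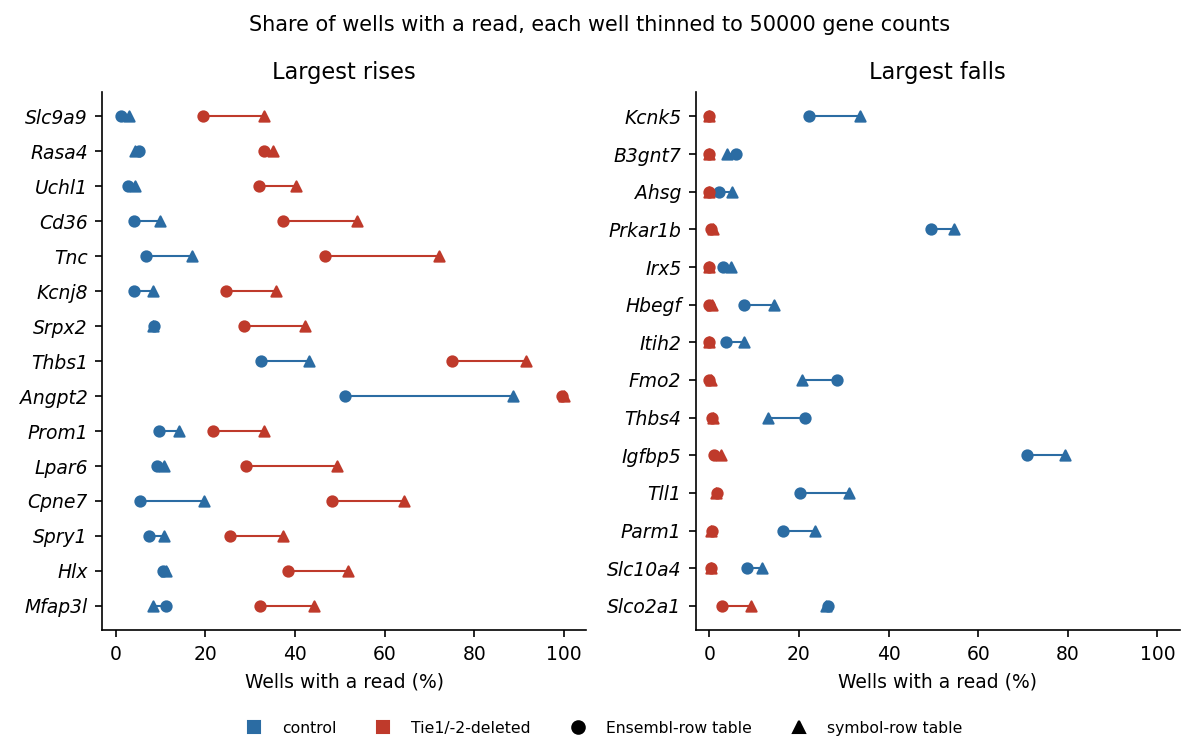
Share of wells (%) with at least 1 read of each of the 15 genes with the largest rise (left) and of 14 with the largest fall (right), each well thinned to 50000 gene counts; control plates in blue, Tie1/-2-deleted plates in red, circles for Ensembl rows, triangles for symbol rows. Igfbp5 and Prkar1b went from 71.0% and 79.3% and from 49.4% and 54.7% of the control wells to under 3% of the deleted wells, and Angpt2 was found in nearly every deleted well.

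Some of the called genes cannot be told apart from a neighbor on the other strand, since no strand information is stated for the counting. Called gene models overlap exons of called genes on the opposite strand in 7 cases, namely Gm15441 at Txnip, Gm26776 at Ccdc3, Gm29233 at Thbs1, Gm15270 at Ccn2, A930024N18Rik at Dll1, Gm15587 at Nos3, and Gm20412 at Tgm2, and each changed in the direction of its partner. These pairs were picked after their values were seen.

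The promoters of 4 of the genes described above are shown, namely Igfbp5 and Kcnk5 of the largest falls, Cldn11 of the valve list, and Spry1 of the largest rises. Each is the RefSeq window of 250 bases before to 50 bases after the start of the gene in GRCm38.p6, on the strand of the gene, at chr1:72874816-72875115 (minus), chr14:20181733-20182032 (minus), chr3:31149670-31149969 (plus), and chr3:37639697-37639996 (plus). Capitals mark matches on either strand to 4 short motifs, the forkhead motif GTAAACA that FoxO factors share with other forkhead factors, the TEAD motif GGAATG through which YAP and TAZ act, the ETS motif CCGGAAG, and the GC box GGGCGGG.
Igfbp5: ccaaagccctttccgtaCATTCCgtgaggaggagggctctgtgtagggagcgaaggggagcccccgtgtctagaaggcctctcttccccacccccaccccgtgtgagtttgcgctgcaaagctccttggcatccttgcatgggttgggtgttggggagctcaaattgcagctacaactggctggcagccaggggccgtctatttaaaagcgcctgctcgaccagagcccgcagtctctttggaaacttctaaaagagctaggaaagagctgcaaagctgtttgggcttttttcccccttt
Kcnk5: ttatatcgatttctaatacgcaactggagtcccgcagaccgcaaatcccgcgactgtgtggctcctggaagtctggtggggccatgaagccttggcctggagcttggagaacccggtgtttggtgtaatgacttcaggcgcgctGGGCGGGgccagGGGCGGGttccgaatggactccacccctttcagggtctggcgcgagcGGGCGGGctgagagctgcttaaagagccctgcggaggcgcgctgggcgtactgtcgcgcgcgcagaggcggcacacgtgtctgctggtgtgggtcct
Cldn11: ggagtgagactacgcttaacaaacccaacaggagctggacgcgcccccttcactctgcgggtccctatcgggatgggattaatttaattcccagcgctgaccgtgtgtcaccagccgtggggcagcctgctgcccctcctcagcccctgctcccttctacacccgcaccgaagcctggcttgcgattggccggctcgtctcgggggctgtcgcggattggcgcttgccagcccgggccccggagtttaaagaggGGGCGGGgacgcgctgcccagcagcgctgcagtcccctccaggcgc
Spry1: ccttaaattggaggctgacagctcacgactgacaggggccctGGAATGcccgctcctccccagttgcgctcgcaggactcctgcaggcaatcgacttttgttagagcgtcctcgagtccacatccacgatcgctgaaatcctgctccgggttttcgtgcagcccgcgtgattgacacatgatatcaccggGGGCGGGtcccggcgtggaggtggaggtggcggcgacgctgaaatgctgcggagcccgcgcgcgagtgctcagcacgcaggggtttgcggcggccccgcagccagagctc
The Igfbp5 window held 1 TEAD match, Kcnk5 held 3 GC boxes, Cldn11 1 GC box, and Spry1 1 TEAD match and 1 GC box. These 4 do not stand for all named genes. Windows of some others held matches, while those of Tie1, Tek, Tnc, and Cd36, among others, held none. Windows were found for 33 of the 46 genes that rose, 110 of the 151 that fell, and 12697 of the 20237 tested. The forkhead motif was in 6.06% of the genes that rose, 2.73% of those that fell, and 3.31% of those tested, and the TEAD motif in 12.1%, 19.1%, and 15.0%. The GC box was in 48.5%, 61.8%, and 47.2%, and the ETS motif in 3.03%, 3.64%, and 17.2%. Among all 32851 windows of the table, 3.65% held the forkhead motif, 14.7% the TEAD motif, 8.86% the ETS motif, and 25.6% the GC box. A match is a run of letters and not a site, and these shares were not tested.

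The same series holds 4 plates of the Tie1fl/fl strain with and without Prox1CreERT2, in which the 4-OHT scheme was the same and Tek was not floxed, and both strains were in the same fit. In that strain 1 plate of each group is labelled female and 1 male. No gene was called with deletion of Tie1 alone. Of the 46 genes that rose with Tie1/-2 deletion, 42 had a positive log2 fold change with Tie1 deletion, with a median of 0.41, and of the 151 that fell, 136 had a negative one, with a median of -0.48. Over all genes tested, 50.1% had a negative one. All 197 were chosen for their change in the double deletion, so their larger size there is no finding. The difference between the deletions itself was called for 8 of 20237 genes (0.0395%) and was at an unadjusted p under 0.05 for 1617. It was called for 0 genes with layout as a replicate block within each strain and for 0 to 1 with any plate left out. All 8 were lower with the double deletion than with Tie1 deletion.

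By size, the largest differences were those of Kcnk5, Prkar1b, Tll1, Clca3a1, and Eln. Kcnk5 was at 0 CPM in both Tie1/-2-deleted plates but at 28.8 and 47.2 CPM in the Tie1-deleted plates, and Prkar1b at 0.0315 and 0.0351 CPM against 80.8 and 47.2 CPM. Tll1 was at 0.394 and 0.544 CPM in the double deletion and at 21.6 and 18.9 CPM in the single. Clca3a1, which has close paralogs between which reads can be split, was at 190 and 209 CPM in the double floxed controls, 8.59 and 9.53 CPM with the double deletion, and 113 and 120 CPM with Tie1 deletion (difference in log2 fold change -3.59 ± 0.24, adjusted p = 0.0324). These genes were also found in fewer thinned wells with Tie1 deletion alone than in the Tie1fl/fl controls, which was not tested. The shares were 37.6% and 17.4% in the controls against 19.8% and 9.3% for Kcnk5, and 59.4% and 35.3% against 37.2% and 9.01% for Prkar1b. They were 33.6% and 17.1% against 19.2% and 9.01% for Tll1, and 78.6% and 59.4% against 66.3% and 32.3% for Clca3a1. Eln was at 527 and 551 CPM with Tie1 deletion against 590 and 770 CPM in its controls, and its difference was -2.99 ± 0.24 (adjusted p = 0.045). Cldn11, with a log2 fold change of 0.18 for Tie1 deletion and -2.50 for the double deletion, was called as well (difference -2.67 ± 0.23, adjusted p = 0.045). The other 2 were Lrg1, a secreted glycoprotein, and Fndc1, named after their values were seen, with differences of -2.91 ± 0.24 and -2.70 ± 0.19.

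The targeted genes were set side by side for both strains. In thinned wells a Tie1 read was found in 92.9% and 45.3% of the wells of Tie1-deleted plates 1 and 2. In their control plates it was found in 100% and 99.4%. Tie1 had a log2 fold change of -1.92 with Tie1 deletion, which was not called (adjusted p = 0.912), and of -2.14 with the double deletion, and the difference was -0.21 ± 0.29 (adjusted p = 0.92). Tek had a log2 fold change of -0.28 with Tie1 deletion and -2.76 with the double deletion, but the difference of -2.47 ± 0.41 was not called (adjusted p = 0.21). Angpt2 was at 864 and 1023 CPM in the Tie1-deleted plates against 350 and 392 CPM in their controls, a log2 fold change of 1.35 that was not called, and the difference of 1.60 was not called either (adjusted p = 0.462). Cpne7 and Kcnj8 had log2 fold changes of 2.74 and 3.12 with Tie1 deletion and 2.86 and 3.62 with the double deletion, while Lpar6 had 0.05 and 2.87. None of these 3 differences was called, so unequal change was not shown for them.

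**Figure D5:**
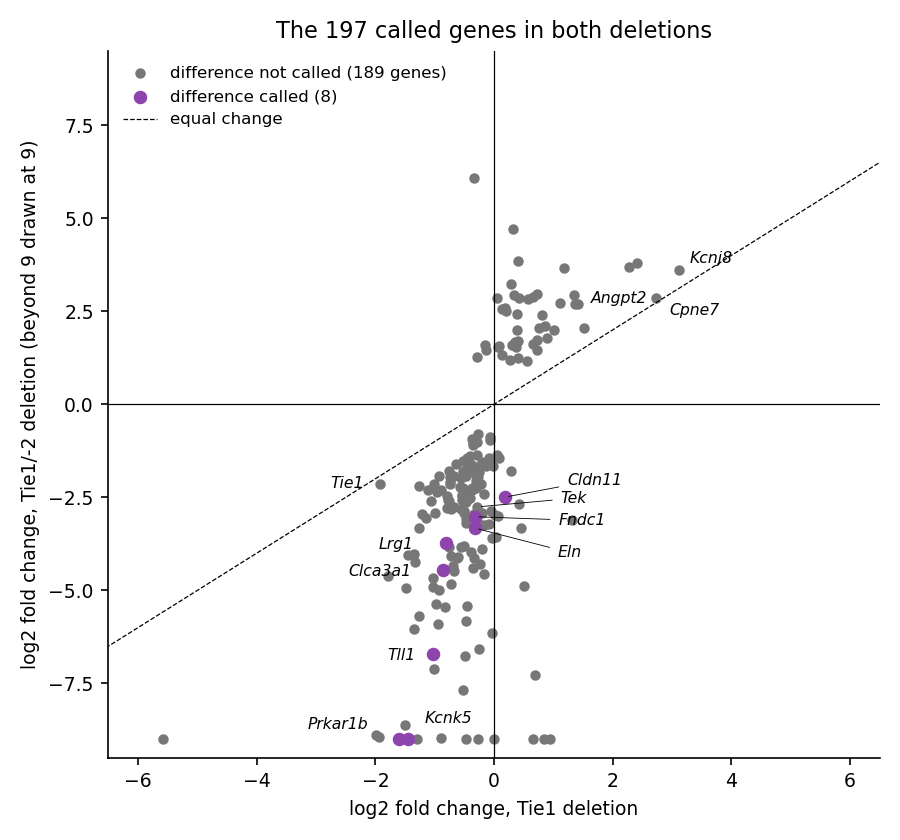
Log2 fold change with Tie1 deletion (horizontal) and with Tie1/-2 deletion (vertical) for the 197 genes called in the double deletion, with falls beyond 9 drawn at 9 and the dashed line at equal change. The 8 genes whose difference between the deletions was called (purple) all lie below the line, and Cpne7 and Kcnj8 lie near it.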

How the data were processed

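The authors deposited raw read counts per gene and well, 1 table per plate, with no normalization. Per the submitters' processing notes, reads were handled with TopHat2 2.1.1, SAMtools 0.1.18, and featureCounts of Subread on GRCm38 (mm10). Tables named genes by Ensembl identifier or by symbol, and 42505 genes were joined, which held 95.8 to 96.9% of the counts of the 4 plates. Rows of spike-ins were left out.

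Wells with at least 50000 gene counts and 1000 detected genes were kept, and their counts were summed per plate, since wells of a plate are not replicates. All 8 Smart-seq plates entered 1 quasi-likelihood fit (edgeR 4.0.16, R 4.3.3, TMM scaling, filterByExpr) with group and table layout as terms, and p-values were adjusted by Benjamini-Hochberg over 20237 genes. The SE of a log2 fold change is its size divided by the square root of F. Wells were thinned to 50000 gene counts in Python 3.11.15. Alternatives used limma 3.58.1, DESeq2 1.42.0, other well filters, and fits without each plate. The labels do not tie plates into pairs. Within each strain the difference between layouts correlated between control and deleted plates across genes (r = 0.31 over 9775 genes in the double floxed strain and 0.28 over 9767 in the other).

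Members, gene lists, and tests were chosen with earlier results of these data known. Named genes were the targeted receptors, 10 genes the study names, the 15 called genes that rose most and the 15 that fell most among those of at least 10 CPM in the higher group, for each list at most 4 called genes in each direction and its most abundant uncalled members, and the 5 largest called differences between deletions. Numbered gene models and sex-linked genes were left out of that choice, and 1 of the 15 falls is not reported here. Floors use 3 counts over a group.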

Additional observations from a re-analysis of the deposited data

Results flagged for a closer look

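The effect of Tie1/-2 deletion differed from that of Tie1 deletion, by the test of the difference itself, for 8 genes. The differences in log2 fold change were -14.53 for Kcnk5, -11.09 for Prkar1b, -5.69 for Tll1, -3.59 for Clca3a1, -2.99 for Eln, -2.91 for Lrg1, -2.70 for Fndc1, and -2.67 for Cldn11, with adjusted p of 0.0324 for Prkar1b, Fndc1, and Clca3a1 and 0.045 for the other 5 (edgeR's quasi-likelihood test). With layout as a replicate block within each strain 0 genes were called, and with any plate left out 0 to 1. The values for Kcnk5 and Prkar1b depend on the prior count, since their deleted plates held 0 and 6 reads.

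A row for eGFP, present only in tables with Ensembl identifiers and used in no comparison, held 1652 reads in 220 of the 352 kept wells of control plate 1 (62.5%) and 0 reads in deleted plate 1. In the Tie1 strain it held 1401 reads in 202 kept wells of a deleted plate and 12 reads in 10 kept wells of a control plate.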

How the results depend on the processing

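The number of genes past the threshold moved with the processing. With layout as a replicate block within each strain, in which plates are paired by layout, 124 genes were called (24 higher, 100 lower), 47 of the 74 named called genes kept their call, and 0 differed between the deletions. DESeq2 called 1406 genes (469 higher, 937 lower) and 669 differences, limma on the mean CPM per well 367 (102 and 265) and 27 differences, and wells thinned to 50000 gene counts 380 (120 and 260) and 70 differences. The count of differences was 17 without the layout term, 16 without a filter on low counts, and 16 without wells over 100 CPM of fibroblast or keratin markers, an alternative chosen after seeing the data.

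Leaving out 1 plate gave 16 to 180 called genes, 1 to 44 of them higher and 15 to 136 lower, and 0 to 1 differences. The counts were 16 and 19 without control plate 1 or 2, 32 and 16 without deleted plate 1 or 2, and 68 and 69 without a plate of the Tie1 deletion, and the lone plate of a group was assumed to vary like the others. The log2 fold change of Tie1 ranged from -2.46 to -1.88 and that of Tek from -3.28 to -2.36, with adjusted p of up to 0.0924 and 0.137.

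Some genes that were not called changed sign. In thinned wells Col18a1 was at 0.01, Bcl2l1 at 0.05, and Piezo1 at 0.01. Without 1 plate the ranges were -0.09 to 0.19 for Prox1, -0.44 to 0.22 for Flt4, -0.05 to 0.37 for Ptprb, -0.06 to 0.14 for Mmrn1, -0.28 to 0.07 for Col18a1, -0.39 to 0.21 for Bcl2l1, -1.45 to 0.01 for Notch1, -0.01 to 0.40 for Anxa2, -0.17 to 0.21 for Igfbp4, and -0.46 to 0.21 for Piezo1. Where a value moved, the cause was not tested.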
